A study of Mus musculus with 9 samples.

Results

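The 10 genes followed here belong to the TNF superfamily and link chondrocyte death to the control of bone resorption. They were measured in cultured mouse articular chondrocytes: Tnfsf10 (TRAIL) and its receptor Tnfrsf10b, Tnfsf11 (RANKL) with its receptor Tnfrsf11a (RANK) and its soluble decoy Tnfrsf11b (osteoprotegerin, OPG), Tnf with its receptors Tnfrsf1a (TNFR1) and Tnfrsf1b (TNFR2), Fas, and Tnfrsf12a (Fn14, the TWEAK receptor). The genes were taken by symbol, and all 10 were found among the 55471 genes listed for each culture. The chondrocytes were isolated from the knee joint surfaces (femoral condyles, tibial plateaus) of wild-type mice at postnatal day 5. Each of the 3 groups had 3 cultures. The cells labelled Control received a control adenovirus per the study's methods. The Ad-OSCAR group was infected with an adenovirus that expresses OSCAR (osteoclast-associated receptor, a collagen receptor), and the Ad-OSCAR + 5-ASA group carried the same virus and was then given 5-aminosalicylic acid, an anti-inflammatory drug used in ulcerative colitis, at 10 µM. All plates were coated with COLpep, a collagen peptide, and no IL-1β was added to any group. The labels give an infection of 2 h at 400 infectious units per cell (MOI) after 3 days of culture and 36 h before 5-ASA, whereas the study's methods give 800 MOI after 2 days and a further 24 h of culture. The groups model overexpression from a virus in cultured cells, although the title of the series speaks of mice.

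Members of this family work in ligand and receptor pairs. RANKL binds RANK on osteoclast precursors and drives them to become osteoclasts, and OPG is a secreted receptor that captures RANKL and can also bind TRAIL. TRAIL, Fas ligand and TNF engage death receptors, whose intracellular death domains recruit FADD or TRADD and lead to caspase 8, while TNFR2 and Fn14 lack a death domain and signal through TRAF adaptors. Chondrocytes are known to make both OPG and RANKL, and TNF is known as an inducer of cartilage breakdown.

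Total estimated counts ranged from 19733431 to 28192725 per culture. Oscar itself had between 3 and 4 counts per culture in Control, between 173445 and 187278 with the virus alone and between 80766 and 94199 with virus and 5-ASA. The virus labels and the targeted gene thus matched in all 9 cultures, but Oscar does not check which virus cultures received 5-ASA. These counts include transcripts of the virus. Oscar was 0.51-fold with 5-ASA relative to Ad-OSCAR (log2 fold change −0.97 ± 0.065 SE, edgeR adjusted p = 1.76e-08). The part of this lower transgene level in any difference between those 2 groups was not tested. The cells were labelled articular chondrocytes. Their 10 chondrocyte markers summed to 43279 to 49157 CPM (counts scaled to a common library total) in Control, 3089 to 3483 in Ad-OSCAR and 3966 to 4431 in Ad-OSCAR + 5-ASA, and 10 of 10 fell with Ad-OSCAR. In such bulk samples, fewer cells of a type and less RNA per cell cannot be told apart. Nothing in the labels says whether the cultures came from separate animals, so the p-values measure only the spread between these cultures.

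All 10 members are protein-coding genes, placed here on GRCm38 by GENCODE M21, and each count covers the exons of the whole gene. The ligands are RANKL at chr14:78277445-78308043 (minus strand), TRAIL at chr3:27317028-27342427 (plus strand) and Tnf at chr17:35199381-35202007 (minus strand). OPG lies at chr15:54250619-54278484 (minus strand) and RANK at chr1:105780718-105847981 (plus strand). The receptors of TNF are TNFR1 at chr6:125349362-125362484 (plus strand) and TNFR2 at chr4:145213463-145246870 (minus strand). The TRAIL receptor lies at chr14:69767472-69784411 (plus strand), Fas at chr19:34290666-34327772 (plus strand) and Fn14 at chr17:23675445-23677468 (minus strand).

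The upstream sequences of the members are described because several of them were higher together with Ad-OSCAR. RefSeq windows on GRCm38.p6 of the 250 bases before the start of the gene as RefSeq places it were found for 8 of the 10 members. GENCODE starts some of them further upstream, so that the whole window of Tnfrsf1a and 49, 19 and 5 bases of those of Tnfsf10, Tnfrsf12a and Tnfrsf11a lie inside the GENCODE gene, whereas the windows of Tnfsf11, Tnf, Tnfrsf1b and Fas lie before it. The letters TATAAA, the core of the TATA box, occurred on either strand in the windows of Tnfsf11 and Tnf and in none of the other 6, against 12.4% of 32851 windows in all genes. The match in Tnf lay 29 to 24 bases before the start, and that in Tnfsf11, which reads TATAAA on the opposite strand, lay 32 to 27 bases before it. The letters TTCNNNGAA, recognised by STAT factors, occurred in Tnfrsf1a, Tnfrsf1b and Fas (7.02% of all windows), and TGANTCA, the AP-1 element, in Fas (6.75%). The NF-κB consensus was matched in none of the 8 windows and in 3.90% of all windows. No match overlapped another. A match is a run of letters and not a shown binding site. The 4 windows of members whose levels were highest with Ad-OSCAR relative to Control are given 5′ to 3′ on the gene's strand, with these matches in capitals: Tnfsf11 at chr14:78308044-78308293 (minus strand), Tnf at chr17:35202008-35202257 (minus strand), Tnfrsf1b at chr4:145246871-145247120 (minus strand) and Fas at chr19:34290409-34290658 (plus strand).
Tnfsf11: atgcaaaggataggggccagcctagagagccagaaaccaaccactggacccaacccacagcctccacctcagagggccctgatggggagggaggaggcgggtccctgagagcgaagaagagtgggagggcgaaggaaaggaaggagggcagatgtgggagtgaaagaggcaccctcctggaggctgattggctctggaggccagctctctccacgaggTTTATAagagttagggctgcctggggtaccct
Tnf: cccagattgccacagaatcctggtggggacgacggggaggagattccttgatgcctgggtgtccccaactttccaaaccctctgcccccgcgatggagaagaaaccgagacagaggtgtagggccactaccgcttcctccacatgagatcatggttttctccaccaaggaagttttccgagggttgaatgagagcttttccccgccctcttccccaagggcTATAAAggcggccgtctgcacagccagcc
Tnfrsf1b: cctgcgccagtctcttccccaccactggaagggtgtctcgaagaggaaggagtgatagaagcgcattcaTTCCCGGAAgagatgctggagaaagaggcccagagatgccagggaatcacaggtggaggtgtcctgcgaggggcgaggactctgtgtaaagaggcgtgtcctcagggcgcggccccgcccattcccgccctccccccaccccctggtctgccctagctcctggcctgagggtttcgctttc
Fas: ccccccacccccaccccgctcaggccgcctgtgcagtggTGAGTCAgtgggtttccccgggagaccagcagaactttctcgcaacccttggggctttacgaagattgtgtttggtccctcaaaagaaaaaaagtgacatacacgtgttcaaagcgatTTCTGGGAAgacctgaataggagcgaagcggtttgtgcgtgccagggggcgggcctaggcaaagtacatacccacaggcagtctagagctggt

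The levels of the members fell into separate tiers, given here in TPM, transcript levels that allow for gene length and are scaled to a common total. OPG was the most abundant member in every group, with 302 ± 6.83 TPM in Control (SD, n = 3), 311 ± 10.8 in Ad-OSCAR and 361 ± 7.77 in Ad-OSCAR + 5-ASA. In Control, Tnfrsf1a (153 ± 7.44 TPM) and Tnfrsf12a (153 ± 1.31 TPM) came next with overlapping values, followed by Fas (46.7 ± 2.54 TPM) and Tnfrsf10b (38.1 ± 0.436 TPM). Tnfrsf1b (13.8 ± 0.83 TPM) and RANKL (12.9 ± 1.67 TPM) overlapped each other below them. Tnfrsf11a, Tnfsf10 and Tnf stayed under 1 TPM in all groups. With Ad-OSCAR the order changed: Fas stood at 103 ± 6.64 TPM, RANKL, at 68.3 ± 2.71 TPM, passed Tnfrsf10b (57.3 ± 4.0 TPM), and Tnfrsf1b stood at 44.4 ± 0.735 TPM, with no overlap between neighbours in that order. In Ad-OSCAR + 5-ASA the order of the first 7 was the same, and only Tnfrsf10b (43.6 ± 2.57 TPM) and Tnfrsf1b (43.3 ± 2.33 TPM) overlapped among them.

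**Figure D1:**
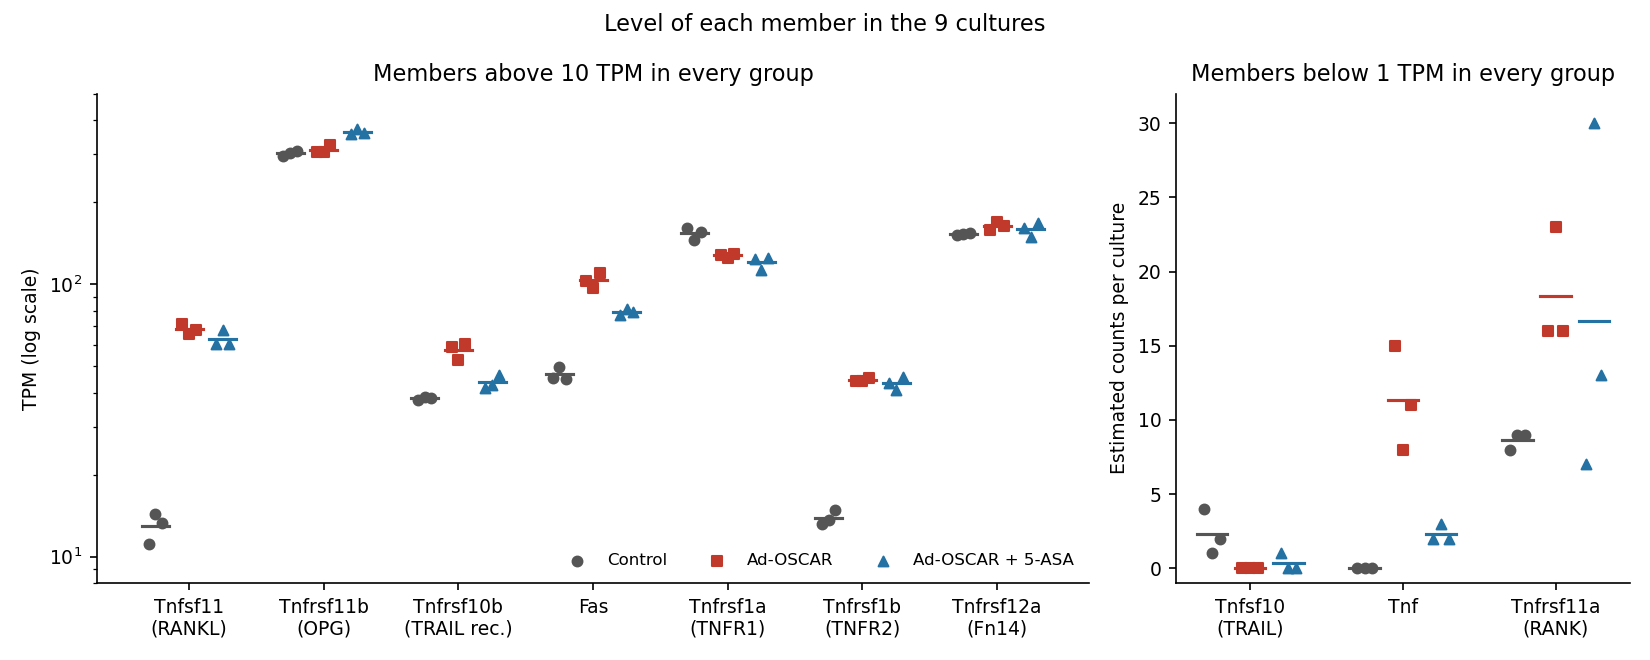
Level of each member in the 9 cultures (points: cultures, horizontal lines: group means). The left panel gives TPM on a log axis and the right panel estimated counts of the 3 members under 1 TPM. RANKL, Tnfrsf1b, Fas and Tnfrsf10b lie higher in the 3 Ad-OSCAR cultures than in the 3 Control cultures, and OPG is highest with 5-ASA.

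The first comparison asked how OSCAR overexpression changed these transcripts. Of the members tested, RANKL and TNFR2 rose most, Fas and the TRAIL receptor rose less, TNFR1 fell, and OPG, Fn14 and RANK did not pass the test. Of the 8 members that passed the filter on low counts, 5 had an adjusted p below 0.05, 4 upwards and 1 downwards, beside 65.0% of all 15362 genes tested (32.7% upwards and 32.2% downwards). The share of members called was close to that of all genes. By the study's stricter cut-off for OSCAR, an absolute log2 fold change above 1.5 with an adjusted p below 0.05, RANKL and Tnfrsf1b were called, 2 of 8, beside 9.96% of all genes. DESeq2 called 3 by that cut-off, adding Tnf, and edgeR without the filter called 4, adding Tnf and TRAIL. The median log2 fold change of the 8 was 0.65 and that of all genes 0.022.

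RANKL, the ligand that drives osteoclast formation, measured 11.1, 14.4 and 13.3 TPM in the Control cultures and 71.2, 65.8 and 68.0 TPM in the Ad-OSCAR cultures. Every Ad-OSCAR culture lay far above every Control culture. It rose 5.18-fold (log2 fold change 2.37 ± 0.075 SE, edgeR adjusted p = 5.39e-15), and 4.5% of the genes tested had a larger absolute change. OPG, its decoy, measured 295, 303 and 308 TPM in Control and 304, 306 and 324 TPM in Ad-OSCAR, so the groups overlapped. Its log2 fold change was 0.01 ± 0.042 SE (95% interval −0.07 to 0.10, edgeR adjusted p = 0.785), and 97.7% of the genes tested had a larger absolute change. RANK, the signalling receptor, had 8, 9 and 9 counts in Control and 16, 23 and 16 in Ad-OSCAR, a level at which counting error is large. Its log2 fold change of 0.74 ± 0.455 SE did not pass the test (edgeR adjusted p = 0.161). Its TPM values overlapped between the groups, whereas its CPM values did not (0.37 to 0.476 in Control, 0.543 to 0.943 in Ad-OSCAR).

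The ratio of RANKL to OPG, the measure commonly used for the balance of these signals, was taken within each culture. RANKL stood at 3.76, 4.74 and 4.3% of OPG in the Control cultures and at 23.4, 21.5 and 21.0% in the Ad-OSCAR cultures, on the TPM scale. All Ad-OSCAR ratios lay above all Control ratios. The ratio was 0.0427 ± 0.00489 (SD, n = 3) in Control and 0.22 ± 0.0127 in Ad-OSCAR, 5.17-fold higher (two-sided exact permutation p = 0.1, the smallest that 3 cultures against 3 allow, adjusted p = 0.1 over 3 comparisons). OPG remained the more abundant transcript in every culture. These are ratios of transcripts and say nothing of secreted protein.

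**Figure D2:**
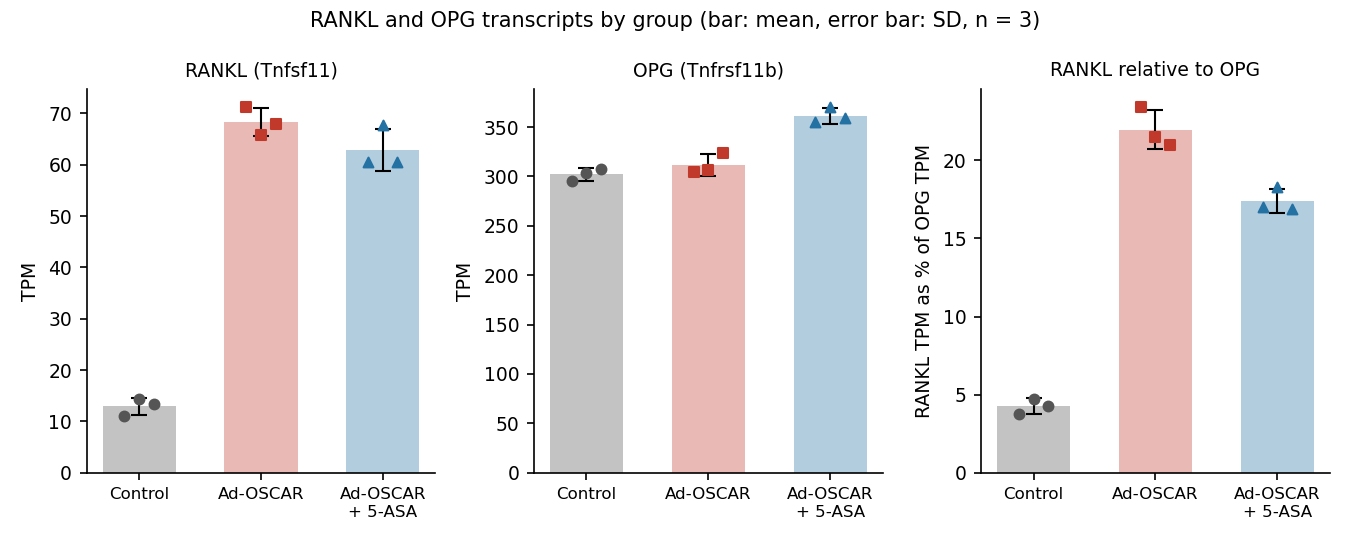
RANKL (left) and OPG (middle) in TPM, and RANKL TPM as a percent of OPG TPM (right), for the 3 groups. Points are cultures, bars are group means and error bars are SD (n = 3). RANKL is at 65.8 to 71.2 TPM in Ad-OSCAR against 11.1 to 14.4 in Control, OPG is higher with 5-ASA (355 to 370 TPM), and the ratio with 5-ASA lies between those of the other groups.

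Among the receptors for TNF, the pair went in opposite directions. TNFR2, which signals without a death domain, measured 13.2, 13.6 and 14.8 TPM in Control and 44.0, 44.1 and 45.3 TPM in Ad-OSCAR. The groups did not overlap, and the spread within each was under 2 TPM. It rose 3.12-fold (log2 fold change 1.64 ± 0.054 SE, edgeR adjusted p = 9.42e-15). TNFR1, the death domain receptor, measured 160, 145 and 155 TPM in Control and 128, 125 and 129 TPM in Ad-OSCAR, again without overlap. It fell to 0.809-fold (log2 fold change −0.31 ± 0.045 SE, edgeR adjusted p = 9.41e-06), but remained the more abundant of the pair. Fn14 measured 151, 153 and 154 TPM in Control and 158, 169 and 163 TPM in Ad-OSCAR. Its log2 fold change of 0.07 ± 0.05 SE (95% interval −0.04 to 0.18) did not pass the test (edgeR adjusted p = 0.234).

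The receptors that carry death domains for FasL and TRAIL both rose. Fas measured 45.4, 49.6 and 45.0 TPM in Control and 103, 96.9 and 110 TPM in Ad-OSCAR, with no overlap. It rose 2.16-fold (log2 fold change 1.11 ± 0.056 SE, edgeR adjusted p = 4.45e-12). The annotation places a small RNA gene, Gm27818, over 159 bases of Fas on the same strand. Tnfrsf10b measured 37.7, 38.5 and 38.2 TPM in Control and 58.8, 52.7 and 60.3 TPM in Ad-OSCAR. It rose 1.48-fold (log2 fold change 0.56 ± 0.05 SE, edgeR adjusted p = 1.24e-08), a size exceeded by 35.9% of the genes tested.

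Of the ligands of these receptors, Tnf, TRAIL and Fas ligand were at the edge of detection. Tnfsf12 (TWEAK), the ligand of Fn14, was not, with 16.5 ± 1.27 TPM in Control and 19.5 ± 1.3 TPM in Ad-OSCAR. Its log2 fold change of 0.08 ± 0.1 SE did not pass the test (edgeR adjusted p = 0.497). Tnf had no count in any Control culture and 15, 8 and 11 counts in the Ad-OSCAR cultures. Over the group, a count of 0 allows up to 3 counts, or 0.0466 CPM, and Ad-OSCAR (0.418 CPM) stood 8.98-fold above that floor. The exact 95% lower limit of the ratio was 6.91-fold. Tnf was removed by the filter on low counts. Without the filter its adjusted p was 1.37e-06 (edgeR), and DESeq2, which filters by itself, gave 0.000212. TRAIL had 4, 1 and 2 counts in the Control cultures and none in the Ad-OSCAR cultures, a level whose floor lies 2.95-fold below that of Control (exact 95% lower limit of the ratio 1.82-fold), and it too was removed by the filter. Without the filter its adjusted p was 0.0292 (edgeR), while DESeq2 gave no adjusted value. The floors and limits cover counting error only. Fas ligand was measured at 0.0133 TPM in both Control and Ad-OSCAR and was not tested.

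Because RANKL and Tnf are also expressed by blood cells, the markers of other cell types were set beside them. Of 9 macrophage markers, 5 (Ptprc, Adgre1, Itgam, Tyrobp and Fcer1g) had at most 3 counts in every culture. The summed level of the 9 was 15.6 to 18.3 CPM in Control, 35.5 to 36.2 in Ad-OSCAR and 29.5 to 30.7 in Ad-OSCAR + 5-ASA, and the members of that list that rose with Ad-OSCAR were Cd68, Cd14 and Lyz2. The 6 lymphocyte markers had at most 3 counts in every culture, with a highest sum of 0.041 CPM, and 4 of them, Cd3e, Cd3g, Cd2 and Ms4a1, had no count anywhere. The 7 osteoclast markers summed to at most 23.1 CPM in Control, 38.7 to 40.2 in Ad-OSCAR and 32.2 to 34.8 in Ad-OSCAR + 5-ASA, and 4 of the 5 tested rose with Ad-OSCAR while Acp5 fell by 0.62 on the log2 scale. Atp6v0d2, a proton pump subunit, had 1 count over the Control cultures, 140 over Ad-OSCAR and 111 over Ad-OSCAR + 5-ASA, and the log2 fold changes with Ad-OSCAR of Calcr, Itgb3 and Ctsk were 3.16, 2.26 and 0.59. Dcstamp, needed for fusion of precursors, had no count anywhere. The 5 endothelial markers summed to 0.423 to 1.04 CPM in Control, 2.09 to 2.8 in Ad-OSCAR and 1.35 to 1.79 in Ad-OSCAR + 5-ASA, and Tek, the only 1 tested, rose with Ad-OSCAR (log2 fold change 1.88, edgeR adjusted p = 3.2e-06) and fell by 0.69 on the log2 scale with 5-ASA (edgeR adjusted p = 0.0298). The 5 osteoblast markers summed to 60.4 to 66.5 CPM in Control, 38.9 to 40.1 in Ad-OSCAR and 45.8 to 48.0 in Ad-OSCAR + 5-ASA. Of the 3 tested, Ibsp and Sp7 fell with Ad-OSCAR (log2 fold changes −2.74 and −2.89) and Runx2 rose (0.36). With 5-ASA only Ibsp was called, and it rose by 1.27 on the log2 scale. The 6 fibroblast or synovial markers summed to 9142 to 10140 CPM in Control, 3824 to 4178 in Ad-OSCAR and 4237 to 4885 in Ad-OSCAR + 5-ASA. Most of that sum was Col1a1, which was among the 4 that fell with Ad-OSCAR (log2 fold change −1.67). The others were Thy1 (−2.53), Dpt (−2.08) and Pdgfra (−0.41), whereas Prg4 (lubricin, log2 fold change 1.86) and Cd55 (1.17) rose. The part of the moving markers in the members' changes was not tested.

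The second comparison asked what 5-ASA changed in cells that carried Ad-OSCAR. OPG rose, Fas and the TRAIL receptor fell, and RANKL and TNFR2, which of the members tested had risen most with Ad-OSCAR, did not pass the test. Of the 8 members tested, 3 were called (1 upwards and 2 downwards), beside 17.8% of all genes (10.4% upwards and 7.38% downwards). Of the calls over all genes, 58.5% were upward, against 27.4% when TPM values were tested with limma, where the same 3 members were called in the same directions. The study's methods word their cut-off for 5-ASA, an absolute fold change above 1.5 with an unadjusted p below 0.05, for treated cells against Control. Applied here against Ad-OSCAR, edgeR called 0 of 8 members, beside 4.15% of all genes, although 3 had an unadjusted p below 0.05. DESeq2, and edgeR without the filter, called 1 by that cut-off, which was Tnf.

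OPG measured 355, 370 and 359 TPM in the Ad-OSCAR + 5-ASA cultures, above all 3 Ad-OSCAR cultures. It rose 1.24-fold (log2 fold change 0.31 ± 0.042 SE, edgeR adjusted p = 4.21e-05). RANKL measured 60.5, 67.7 and 60.5 TPM with 5-ASA, values that overlapped with those of Ad-OSCAR. Its log2 fold change was −0.02 ± 0.063 SE (95% interval −0.16 to 0.11, edgeR adjusted p = 0.843), so that any fall beyond 0.16 on the log2 scale lay outside the interval. The ratio of RANKL to OPG was 17.0, 18.3 and 16.9% with 5-ASA, below each Ad-OSCAR culture and above each Control culture. The ratio of 0.174 ± 0.00785 (SD, n = 3) was 0.793-fold that of Ad-OSCAR (two-sided exact permutation p = 0.1, the smallest possible) and 4.09-fold that of Control (two-sided exact permutation p = 0.1). RANK had 7, 30 and 13 counts with 5-ASA, spread more widely than in the other groups, and its log2 fold change of −0.11 ± 0.403 SE was not called (edgeR adjusted p = 0.898).

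Fas measured 77.2, 80.9 and 78.9 TPM with 5-ASA, below all Ad-OSCAR cultures and above all Control cultures. It fell to 0.818-fold (log2 fold change −0.29 ± 0.053 SE, edgeR adjusted p = 0.000745). Tnfrsf10b, at 41.7, 42.6 and 46.5 TPM with 5-ASA, fell to 0.816-fold (log2 fold change −0.29 ± 0.049 SE, edgeR adjusted p = 0.000304) and likewise lay between the other groups. TNFR2 measured 43.4, 40.9 and 45.6 TPM with 5-ASA and had a log2 fold change of 0.07 ± 0.049 SE (95% interval −0.04 to 0.17, edgeR adjusted p = 0.385). TNFR1, at 124, 113 and 125 TPM, had a log2 fold change of 0.01 ± 0.045 SE (95% interval −0.08 to 0.11, edgeR adjusted p = 0.903). Fn14, at 160, 149 and 168 TPM, had one of 0.05 ± 0.05 SE (edgeR adjusted p = 0.58). Tnf had 2, 3 and 2 counts with 5-ASA, fewer than in any Ad-OSCAR culture. The 7 counts against 34 gave a ratio of 0.213 with an exact 95% interval of 0.0796 to 0.488, which covers counting error only, and without the filter the adjusted p was 0.017 (edgeR). DESeq2 gave no adjusted value for it. TRAIL had 1, 0 and 0 counts.

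**Figure D3:**
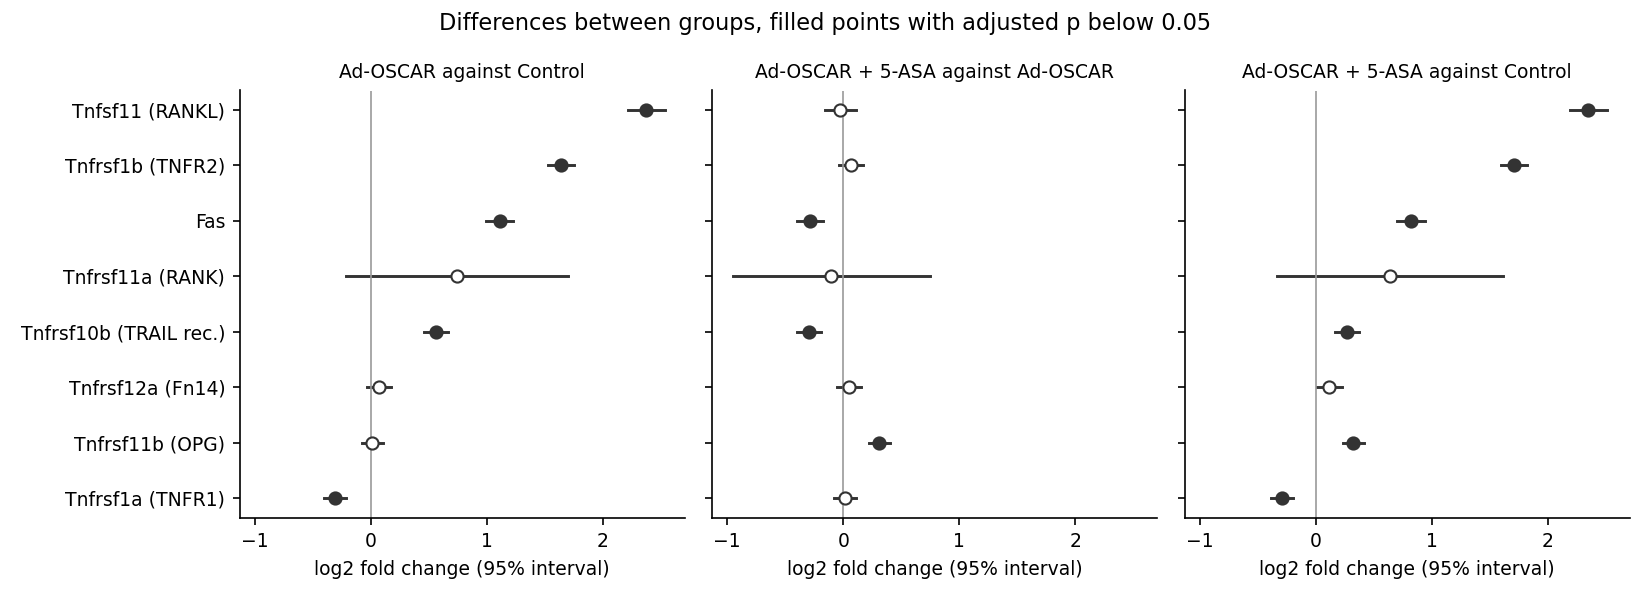
Log2 fold changes of the 8 tested members with 95% intervals (horizontal lines) in the 3 comparisons. Filled points have an adjusted p below 0.05. RANKL and Tnfrsf1b are at 2.37 and 1.64 for Ad-OSCAR against Control and near 0 for Ad-OSCAR + 5-ASA against Ad-OSCAR.

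The third comparison, of Ad-OSCAR + 5-ASA with Control, gave the level at which the treated cells stood, and it shares its samples with the other comparisons. Of the 8 members tested, 6 were called, 5 upwards and 1 downwards, beside 63.2% of all genes (31.4% upwards and 31.8% downwards). By the study's cut-off for 5-ASA, which its methods apply to this pair of groups, 3 of the 8 (RANKL, TNFR2 and Fas) were called, beside 29.9% of all genes, and DESeq2 called 4, adding Tnf. RANKL remained 5.09-fold higher (log2 fold change 2.35 ± 0.075 SE, edgeR adjusted p = 7.84e-15) and TNFR2 3.27-fold higher (log2 fold change 1.71 ± 0.054 SE, edgeR adjusted p = 6.51e-15). Fas was 1.76-fold, OPG 1.25-fold and Tnfrsf10b 1.2-fold higher than in Control, with edgeR adjusted p-values of 4.9e-10, 2.28e-06 and 0.000138. TNFR1 was 0.815-fold (edgeR adjusted p = 1.61e-05). Fn14 was 1.08-fold and lay just outside the threshold (edgeR adjusted p = 0.0518). It passed when genes were required to have at least 10 counts in every culture (edgeR adjusted p = 0.0301). Tnf, with 7 counts against none, stood 1.91-fold above the floor of Control (exact 95% lower limit of the ratio 1.18-fold). Its adjusted p was 0.0254 without the filter (edgeR) and 0.05 with DESeq2.

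The other TNF superfamily ligands and receptors were placed beside the members. Of 15 other ligands, 8 were tested, and with Ad-OSCAR 5 rose and none fell, beside 65.0% of all genes called (median log2 fold change 1.08, against 0.022 for all genes). Tnfsf15 (TL1A) went from 0.47 ± 0.0954 to 33.3 ± 3.48 TPM (log2 fold change 6.09 ± 0.115 SE, edgeR adjusted p = 4.27e-18) and fell by 0.23 on the log2 scale with 5-ASA (edgeR adjusted p = 0.0107). Tnfsf13 (APRIL), which lies within the read-through gene Tnfsfm13 and opposite Tnfsf13os, rose by 1.43 ± 0.276 SE, and Eda (ectodysplasin) by 0.74 ± 0.081 SE on the log2 scale. Tnfsf4 (OX40 ligand) had no count in Control and 63 counts over the Ad-OSCAR cultures, 16.6-fold above the floor (exact 95% lower limit of the ratio 13.1-fold), and the median was 1.08 also with Tnfsf4 set against the floor. With 5-ASA against Ad-OSCAR, 1 of the 8 rose and 1 fell, beside 17.8% of all genes called.

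Of 21 other receptors, 14 were tested, and with Ad-OSCAR 8 rose and 2 fell, beside 65.0% of all genes called (median log2 fold change 0.41). Cd40 rose from 0.483 ± 0.192 to 5.37 ± 0.729 TPM (log2 fold change 3.34 ± 0.255 SE, edgeR adjusted p = 1.63e-09). Tnfrsf9 (4-1BB), which lies opposite Camta1, rose by 2.07 ± 0.07 SE on the log2 scale. The ectodysplasin receptors went apart: Eda2r rose by 1.71 ± 0.088 SE and Edar fell by 1.79 on the log2 scale (edgeR adjusted p = 5.23e-12 and 1.26e-07). With 5-ASA 2 rose and 2 fell, beside 17.8% of all genes called. Edar rose by 0.70 ± 0.202 SE (edgeR adjusted p = 0.0214), and Tnfrsf23, a TRAIL decoy receptor that has close paralogues beside it and lies opposite E230032D23Rik, fell by 0.57 on the log2 scale (edgeR adjusted p = 9.5e-07), to 26.5 ± 2.02 TPM from 41.6 ± 2.81 TPM.

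Downstream of the receptors, all 19 adaptors and death effectors were tested. With Ad-OSCAR 10 rose and 2 fell, beside 65.0% of all genes called (median log2 fold change 0.27), and with 5-ASA 1 rose and 3 fell, beside 17.8%. Traf1, an adaptor of TNFR2, rose most, from 1.98 ± 0.243 to 13.3 ± 1.27 TPM (log2 fold change 2.62 ± 0.123 SE, edgeR adjusted p = 1.5e-12), and was at 12.3 ± 2.19 TPM with 5-ASA. Birc3, an inhibitor of apoptosis that binds TRAF2, rose by 1.44 ± 0.058 SE, and Traf2 by 0.68 ± 0.059 SE on the log2 scale. Mlkl, the executor of necroptosis, rose from 2.82 ± 0.369 to 8.71 ± 1.0 TPM (log2 fold change 1.55 ± 0.132 SE, edgeR adjusted p = 7.43e-09) and fell to 4.97 ± 0.512 TPM with 5-ASA (log2 fold change −0.68 ± 0.116 SE, edgeR adjusted p = 0.000432). Traf5 rose with 5-ASA by 0.49 ± 0.165 SE (edgeR adjusted p = 0.0485). The core of the death complex did not pass the test with Ad-OSCAR, with log2 fold changes of −0.05 for Fadd, −0.14 for Tradd, 0.02 for Ripk1 and 0.17 for Casp8.

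TNF, RANKL and their receptors are released from the cell surface by metalloproteinases, and all 7 genes listed for shedding were tested. With Ad-OSCAR 4 rose and 2 fell, beside 65.0% of all genes called. Timp3, the inhibitor of ADAM17, fell from 1065 ± 46.7 to 107 ± 3.46 TPM (log2 fold change −3.35 ± 0.051 SE, edgeR adjusted p = 3.29e-19) and rose with 5-ASA to 185 ± 5.44 TPM (log2 fold change 0.89 ± 0.047 SE, edgeR adjusted p = 4.89e-09). Timp3 lies within Syn3 on the opposite strand. Rhbdf2 (iRhom2), which brings ADAM17 to the surface, rose by 1.72 ± 0.072 SE, Mmp14 by 0.65 ± 0.049 SE and Frmd8 by 0.34 ± 0.065 SE on the log2 scale. Adam17 itself rose by 0.215 ± 0.045 SE and Adam10 fell by 0.293 ± 0.05 SE. Frmd8, which stabilises the iRhoms, and Rhbdf2 fell with 5-ASA by 0.34 and 0.31 on the log2 scale (edgeR adjusted p = 0.000992 and 0.00182). With 5-ASA 1 of the 7 rose and 2 fell, beside 17.8% of all genes called.

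Other signals by which skeletal cells act on osteoclasts, with receptors that set RANKL, made a list of 12, all tested. With Ad-OSCAR 5 rose and 7 fell, beside 65.0% of all genes called (median log2 fold change −0.29), and with 5-ASA 7 rose and none fell, beside 17.8% called and 10.4% called upwards (median 0.29). Lif, a cytokine of the IL-6 family, rose from 4.71 ± 0.683 to 253 ± 8.0 TPM (log2 fold change 5.84 ± 0.071 SE, edgeR adjusted p = 1.53e-20), and Il11, another, rose from 1.36 ± 0.632 to 33.2 ± 1.94 TPM (log2 fold change 4.77 ± 0.156 SE, edgeR adjusted p = 8.28e-15). Csf1, the survival factor of osteoclast precursors, fell from 180 ± 1.43 to 64.0 ± 0.465 TPM (log2 fold change −1.58 ± 0.056 SE, edgeR adjusted p = 2.51e-14), opposite to RANKL. Il34, a second ligand of the CSF1 receptor, rose with Ad-OSCAR, as RANKL did (log2 fold change 1.18 ± 0.082 SE, edgeR adjusted p = 4.27e-10). Pth1r, the parathyroid hormone receptor, which lies opposite Myl3, fell by 2.25 on the log2 scale. With 5-ASA, Il34 rose further, by 0.66 ± 0.07 SE on the log2 scale, to 87.3 ± 9.38 TPM (edgeR adjusted p = 3.15e-06). Wnt5a rose by 0.50 ± 0.06 SE (edgeR adjusted p = 1.25e-05) and Csf1 by 0.38 ± 0.055 SE (edgeR adjusted p = 8.79e-05) on the log2 scale.

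**Figure D4:**
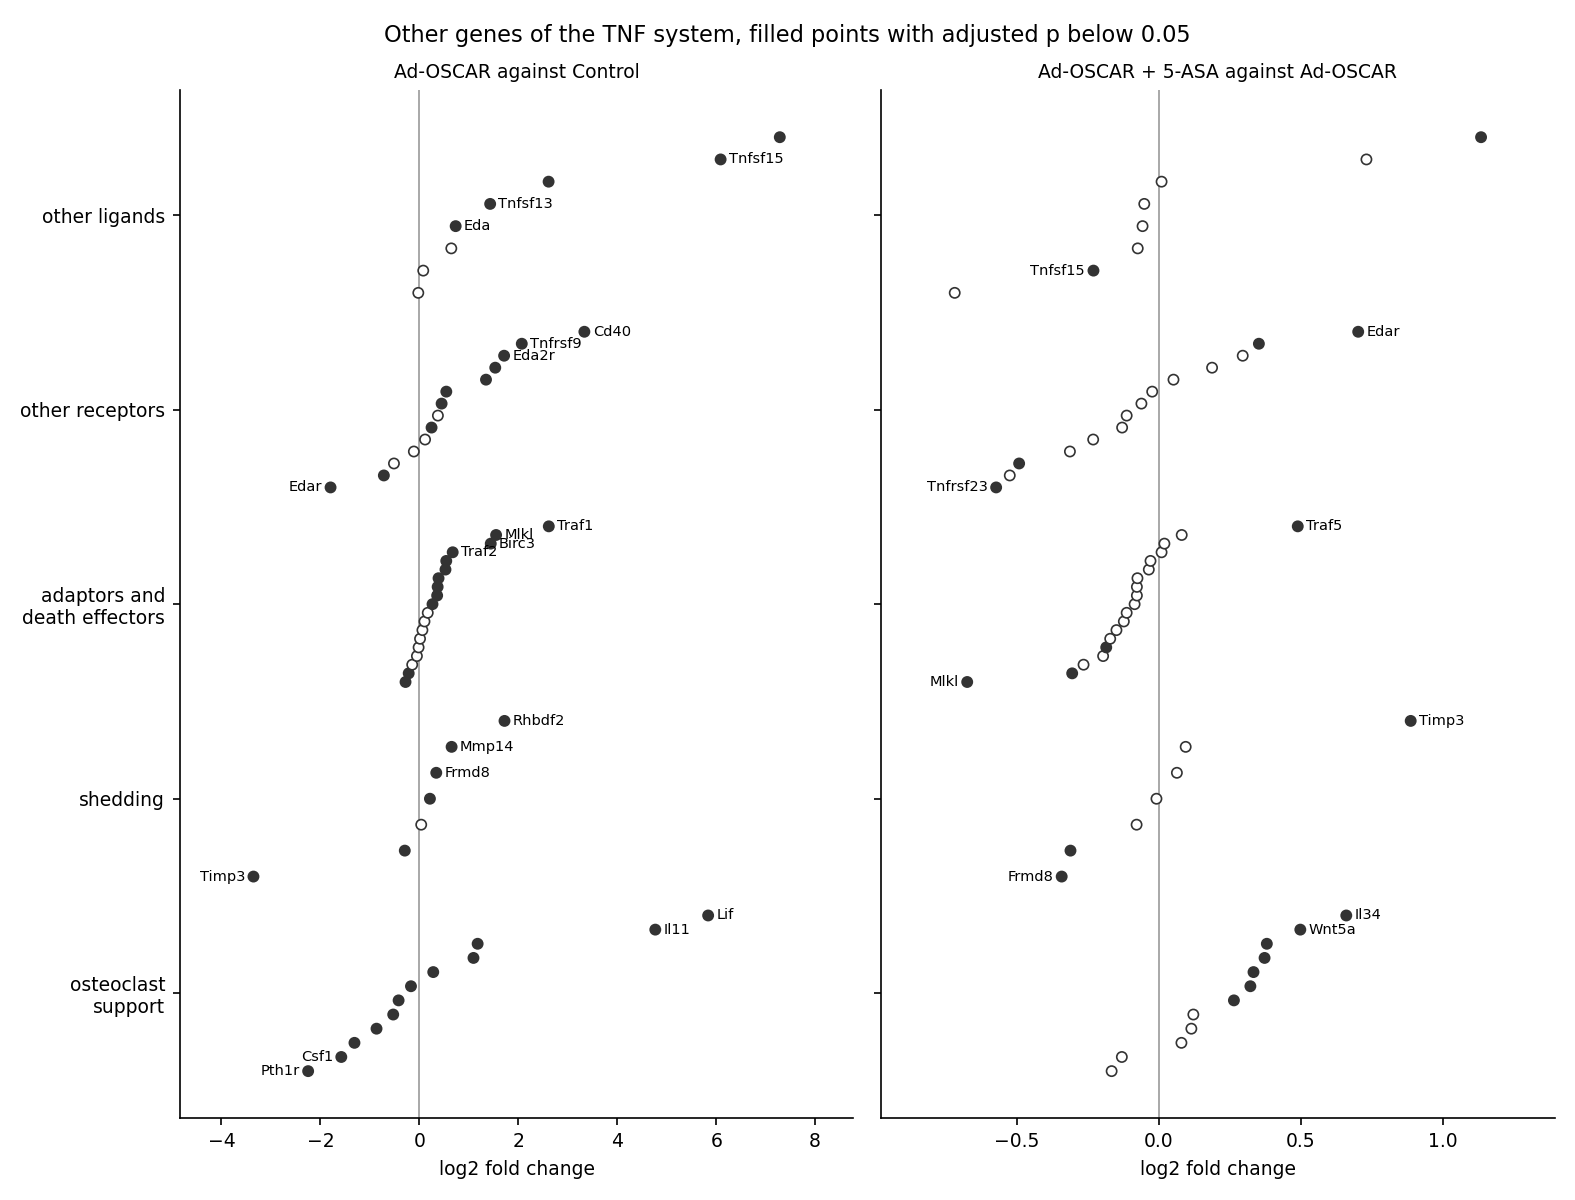
Log2 fold changes of the tested genes of the 5 lists, for Ad-OSCAR against Control (left) and Ad-OSCAR + 5-ASA against Ad-OSCAR (right, with a narrower axis). Each point is a gene, filled where the adjusted p is below 0.05, and its height within a list has no meaning beyond rank. Tnfsf15, Lif and Il11 lie far to the right and Timp3 far to the left with Ad-OSCAR. The unlabelled ligand at 7.29 is Tnfsf4, whose fitted value rests on a group with no counts.

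For the tested members named by rule, the genes with the most similar pattern over the 9 cultures are given as a description, since cultures of 1 group share their condition. The log2 CPM of RANKL followed most closely that of Gm2115 (Pearson r = 0.9993), Acpp (0.9988) and Rgs2 (0.9987), and 1472 genes had an r above 0.95. OPG, which overlapped between Control and Ad-OSCAR and was higher with 5-ASA, was followed most closely by 1700001L05Rik (0.9813), Ccn4 (0.9798) and Mapk8 (0.9783), and 25 genes had an r above 0.95.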

How the data were processed

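Polyadenylated RNA of 9 cultures was sequenced by the authors (TruSeq stranded kit, paired reads of 100 bases), trimmed with BBDuk, aligned to GRCm38 with STAR 2.7.1a and quantified with RSEM 1.3.1. The deposited files hold estimated counts per gene, not scaled to a common total, and TPM, which the authors' RSEM run scaled by gene length to the library. Whether counting used strand is not given in the sources used here, so some overlapping genes are named. Overlaps are left unnamed for other genes, among them Il34, Wnt5a, Frmd8, Eda, Mlkl, Traf2, Traf5, Fadd, Ripk1, Casp8, Tnfsf12 and Adam17. The estimated counts were rounded. With no tolerance, 8.97 to 10.1% of genes per culture were not whole, and 0 of 90 member values.

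Symbols and positions are from GENCODE M21, and 55144 of 55471 genes had one. All genes were fitted in 1 model of the 9 cultures with edgeR 4.0.16 in R 4.3.3 (TMM, filterByExpr, quasi-likelihood test, Benjamini-Hochberg adjustment), which left 15362 genes, a biological coefficient of variation of 5.11% and 6 residual degrees of freedom. CPM uses TMM-scaled totals. On simulated data for Ad-OSCAR against Control, 188 of 196 changed genes were recovered among 15126, with 6 unchanged genes called. The simulation changed only a small share of genes, and by more than several of the members changed. It therefore does not show how small changes are recovered, or how the fit behaves where most genes move. Replicates differed by more than counting noise (chi-square per degree of freedom 4.25 to 8.1). Groups at 0 were set to a floor of 3 counts over the group, and intervals of ratios are exact binomial at the 95% level. The ratio of RANKL to OPG was tested on log2 TPM ratios by exact permutation. Alternatives were DESeq2 1.42.0, RLE scaling, 2 other filters on low counts, fits of 2 groups, a replicate block, limma 3.58.1 on log2(TPM + 1) and leaving out each culture.

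The members and lists were chosen with earlier results of these data known. Named genes were the members, Oscar, and from each list up to 4 genes for Ad-OSCAR and up to 2 for 5-ASA with the largest changes past the threshold, a level of 1 CPM or more on average and groups that did not overlap. Tnfsf4, Tnfsf12, Adam17, Adam10, the markers and the death complex genes were named after their values were seen.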

Additional observations from a re-analysis of the deposited data

How the results depend on the processing

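The number of members called was 5 to 7 for Ad-OSCAR against Control (5 as reported), 3 to 4 for Ad-OSCAR + 5-ASA against Ad-OSCAR (3) and 6 to 8 for Ad-OSCAR + 5-ASA against Control (6), over all alternatives. Leaving out single cultures gave 5 to 6, 3 to 4 and 6 to 8. Every member reported as called was called in the same direction under every alternative. The counts differed through Tnf and Tnfsf10, which other filters or sets of cultures let into the test, and through Tnfrsf12a, which was called for Ad-OSCAR + 5-ASA against Control in 4 alternatives. Members that were not called changed sign in 12 cases. With limma on TPM these were Tnfrsf11a (0.139), Tnfrsf1a (-0.082), Tnfrsf1b (-0.038) and Tnfrsf12a (-0.038), all for 5-ASA against Ad-OSCAR. On leaving out 1 culture, Tnfrsf11b for Ad-OSCAR against Control ranged from -0.004 to 0.041, Tnfrsf11a for Ad-OSCAR + 5-ASA against Control from -0.05 to 0.995, and, for 5-ASA against Ad-OSCAR, Tnfsf11 from -0.087 to 0.017, Tnfrsf11a from -0.795 to 0.25 and Tnfrsf1a from -0.004 to 0.032. The cause was not tested.

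The log2 ratio of RANKL to OPG differed by 2.37 between Ad-OSCAR and Control (2.28 to 2.45 without single cultures) and by -0.34 between Ad-OSCAR + 5-ASA and Ad-OSCAR (-0.37 to -0.29). The same ratio from CPM gave 2.37 and -0.34. The replicate numbers did not pair the cultures, since deviations of same-numbered cultures correlated at -0.0724 to 0.0402. With the replicate block, 5, 3 and 6 members were called in the 3 comparisons, and the exact permutation within replicate numbers gave p = 0.25 for both ratios, the smallest it allows. Depth limits Tnf, Tnfsf10 and Tnfrsf11a, which had at most 30 counts in any culture.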
